A study of Rattus norvegicus with 46 samples.

Results

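The fibrillar collagen genes Col1a1, Col1a2, Col3a1, Col5a1 and Col5a2, were followed through injury of the rat supraspinatus tendon and of the subacromial bursa, the thin sac that lies over it. They were chosen by symbol from the 23747 gene symbols of the deposited result tables. Of these 5 genes, 4 had a row there, and Col1a2 was not analysed here. RNA had been sequenced from 46 libraries in 8 groups. Control bursa and control supraspinatus tendon came from rats without an operation (5 libraries each). In the operated rats the supraspinatus tendon had been cut (tenotomy). The bursa was either kept or removed in the same operation, and tissue was taken 3 or 14 days later. These rats gave 6 groups of 6 libraries, namely bursa on either day, and tendon on either day with the bursa kept or removed. The operated groups have the cut tendon in common, and the labels used here describe no operated group without it. Strain, sex and age are not stated in the labels used here, nor which libraries come from the same rat.

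Fibrillar collagens are made as procollagen chains that are hydroxylated, folded into a triple helix, secreted, trimmed at their ends and crosslinked into fibrils. Type I collagen, whose main chain is encoded by Col1a1, carries the load of healthy tendon. Type III, encoded by Col3a1, is made early in wounds and forms thinner fibrils, and type V, with chains from Col5a1 and Col5a2, starts fibrils and limits their width. A high share of type III to type I is a textbook feature of young tendon scar.

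Levels are CPM, a gene's counts relative to the scaled library size, and fold changes are log2 values ± standard error. A gene was said to rise or fall when its p-value, adjusted over all features of a comparison by the Benjamini-Hochberg method, was under 0.05 in edgeR's quasi-likelihood test. Transcript lengths were not used here, so levels of different genes are not compared with each other, and ratios of genes are compared only between groups. Bulk RNA cannot tell more collagen RNA per cell from more collagen-making cells.

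Libraries held 12425823 to 69947597 estimated counts, and a measured collagen gene had between 832 and 1456350 counts in every library. The 4 genes together made up 0.739% ± 0.202 (SD, n = 5) of counts in control tendon and 8.96% ± 1.14 (n = 6) in tendon at day 14 with the bursa kept. Tissue content differed too. The muscle markers, of which 8 of 14 could be measured, summed to 34135 to 55443 CPM in control tendons and to 1925 to 21751 CPM in the 24 injured tendons. Tendon cell markers, all 7 of them measured, summed to 3977 to 9399 CPM in control tendons and to 61.7 to 2554 CPM in control bursae. Control bursa 4 alone held the 2554 CPM, and the other control bursae 61.7 to 298 CPM. Its cartilage markers summed to 1216 CPM, against 0.679 to 1.69 CPM in the others. It also had the highest level of each of the 4 collagen genes among control bursae, and the part of its tissue content was not tested. The mitochondrial share of counts was 24.7 to 36.5% in control tendons and 7.22 to 12.1% at day 14 with the bursa kept, and its part in the results was not tested. Control bursae 1 and 2 stood apart, with 48.9% and 53.5% mitochondrial counts against 13.3 to 17% in the other 3, and with the lowest level of each of the 4 collagen genes.

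**Figure D1:**
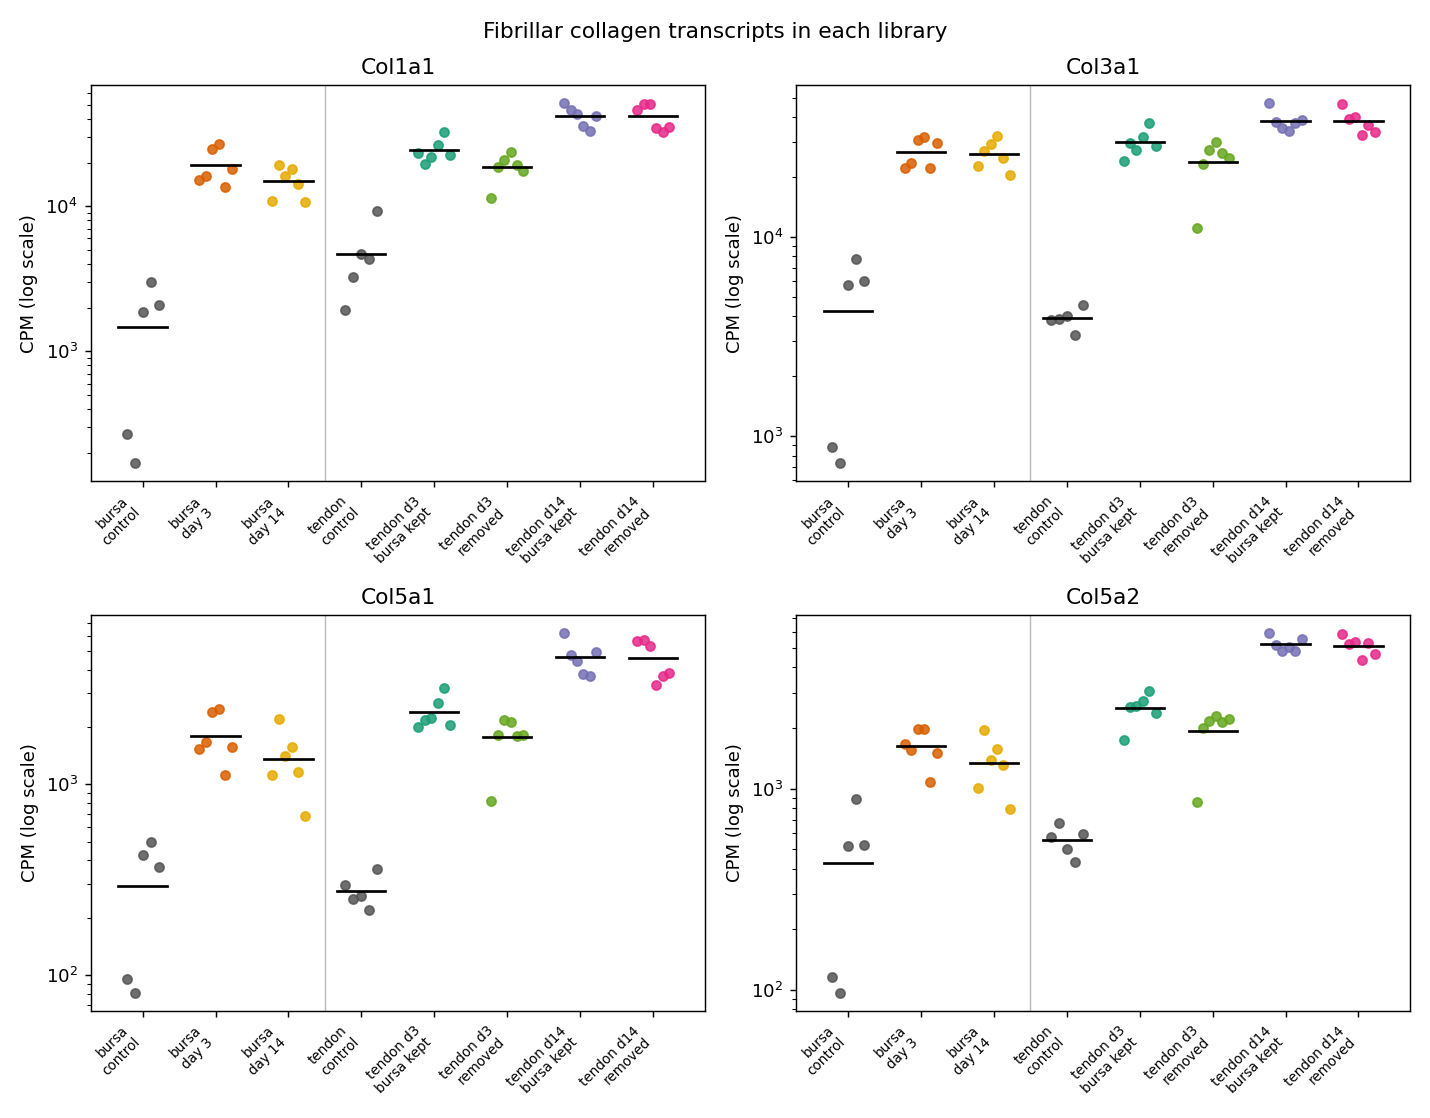
CPM of the 4 measured collagen genes (log axis) in each of the 46 libraries, grouped by tissue, day and bursa; points are libraries and bars are group means. Every injured library lies above every control library of its tissue, apart from Col5a2 in bursa at day 14 (lowest 788 CPM, highest control 883 CPM), and control bursae 1 and 2 are the lowest points of each panel.

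In the tendon, Col1a1 stood at 1919, 3240.2, 4691, 4351 and 9309 CPM in the 5 controls. With the bursa kept it was 19593 to 32342 CPM at day 3 (median 22997) and 33229 to 51447 CPM at day 14 (median 42575). No injured library overlapped a control. The rise was 2.36 ± 0.27 at day 3 (edgeR adjusted p = 2.4e-08) and 3.15 ± 0.28 at day 14 (adjusted p = 3.4e-10), which is 5.13-fold and 8.85-fold. Control tendons differed 4.85-fold among themselves in Col1a1, a wider spread than in Col3a1 (1.42-fold), Col5a1 (1.64-fold) or Col5a2 (1.56-fold).

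Col3a1, the type III chain, was much more even before injury, at 3225 to 4565 CPM in the 5 control tendons (median 3898). With the bursa kept it reached 23997 to 37511 CPM at day 3 (median 29302), a rise of 2.92 ± 0.19 (adjusted p = 5.1e-13). At day 14 it stood at 34148 to 47135 CPM (median 37614), 3.29 ± 0.19 above control (adjusted p = 1.2e-13). Most of the difference from control was thus already present at day 3.

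The type V chains are minor parts of a fibril by mass. Col5a1 went from 219 to 358 CPM in control tendons (median 260) to 1990 to 3186 CPM at day 3 (median 2200) and 3714 to 6240 CPM at day 14 (median 4598), with the bursa kept. Its rise at day 14, 4.06 ± 0.23 or 16.7-fold (adjusted p = 9.4e-14), had the highest estimate of the 4 genes. Col5a2 had 433 to 673 CPM in control tendons (median 572), 1743 to 3050 CPM at day 3 (median 2554) and 4820 to 5948 CPM at day 14 (median 5122). It rose by 2.16 ± 0.18 at day 3 and 3.23 ± 0.19 at day 14 (adjusted p = 9.6e-11 and 1.7e-13). Whether the rises differ between the genes was not tested, apart from the ratios given further on.

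Removing the bursa left these rises in place. Against control tendon, tendons without a bursa had Col1a1 higher by 1.96 ± 0.27, Col3a1 by 2.59 ± 0.19, Col5a1 by 2.65 ± 0.22 and Col5a2 by 1.79 ± 0.18 at day 3. At day 14 the values were 3.13 ± 0.28 for Col1a1, 3.27 ± 0.19 for Col3a1, 4.04 ± 0.23 for Col5a1 and 3.19 ± 0.19 for Col5a2. The highest edgeR adjusted p among these 8 values was 4.7e-07.

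In each of these 4 comparisons with control tendon, 4 of 4 genes rose and none overlapped. Such rises were common there: of all features tested, 32.3% rose at day 3 with the bursa kept and 30.4% with it removed, and 33.4% and 32.8% at day 14. Every injured library lay above every control for 22.8% and 18.2% of features at day 3 and for 23.5% and 22.8% at day 14. Muscle markers moved in the opposite direction, with 8 of 8 lower in all 4 comparisons, where 32.4% and 31.5% of features fell at day 3 and 31.9% and 31.5% at day 14. With the muscle level added to the model, the 4 collagen genes passed as higher, by 1.14 to 2.00 at day 3 and 2.40 to 3.15 at day 14 with the bursa kept, and by 0.86 to 1.69 and 2.5 to 3.28 with it removed (highest adjusted p = 0.021). The mean log2 CPM of muscle markers was 11.5 to 12.2 in control tendons and 7.14 to 10.6 in injured ones. As these ranges do not overlap, the model reaches beyond any shared muscle level and cannot separate injury from muscle content.

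**Figure D2:**
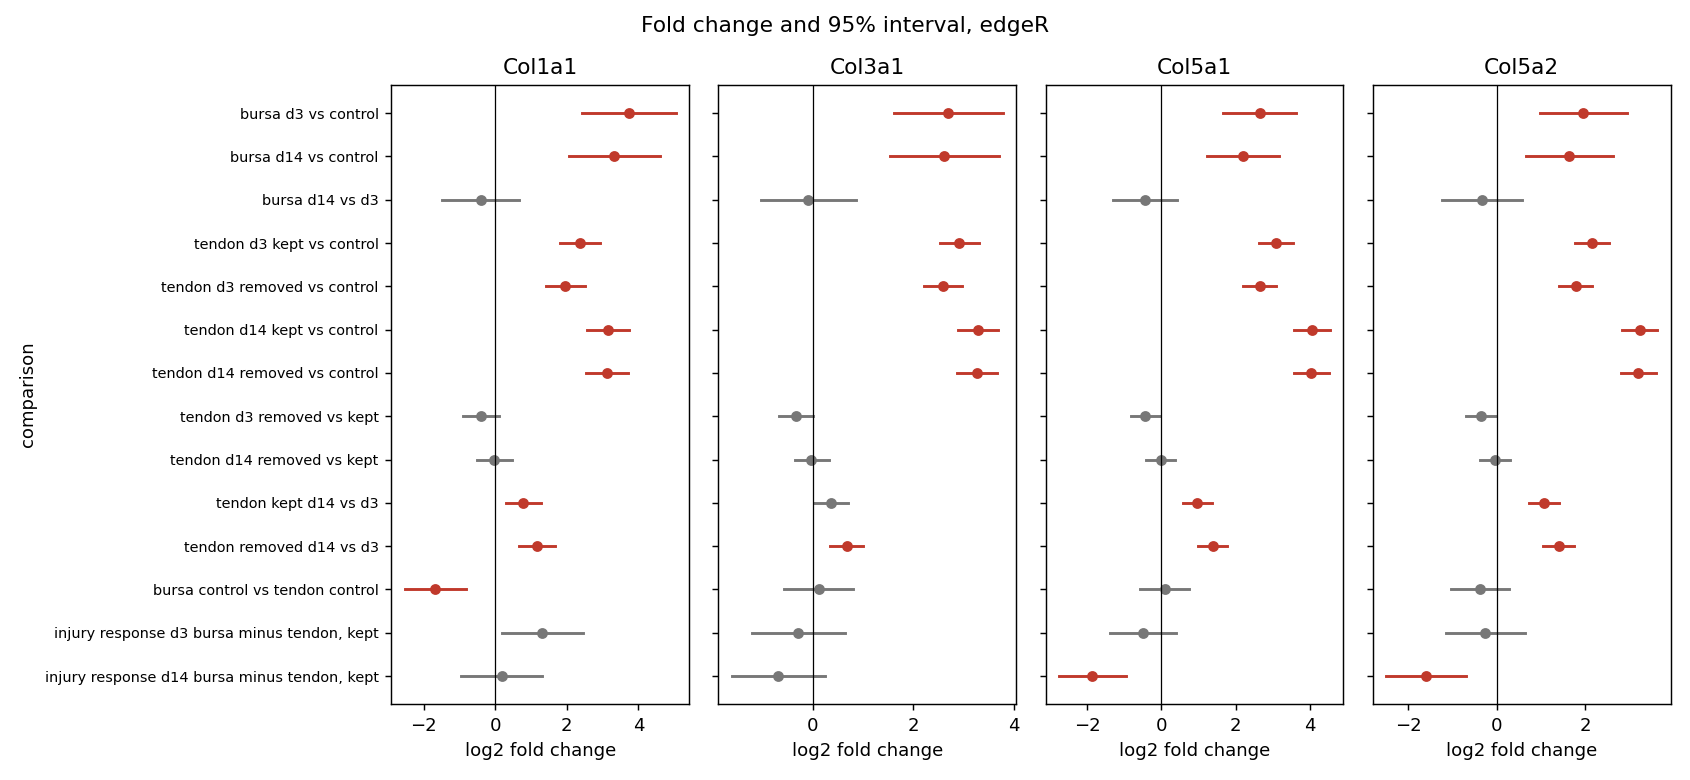
Log2 fold change with its 95% interval from edgeR for the 4 genes (panels) in 14 comparisons (rows); red marks an adjusted p under 0.05 and grey all others, and each panel has its own x axis. All 4 genes are red in the 6 comparisons of injured with control tissue, and none is in the 2 comparisons of removed with kept bursa.

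From day 3 to day 14, the tendon collagens kept climbing, but not evenly. With the bursa kept, Col5a2 gained 1.07 ± 0.17 (adjusted p = 7.7e-06), Col5a1 0.97 ± 0.19 (1.8e-04) and Col1a1 0.79 ± 0.24 (0.01). Col3a1 differed by 0.37 ± 0.16 and did not pass (edgeR adjusted p = 0.072), and its groups overlapped. Thus 3 of 4 genes rose, each without overlap, where 20.8% of all features rose and 12.4% lay higher without overlap. The difference in Col3a1 passed with DESeq2 (0.37, adjusted p = 0.044), with the muscle level in the model (0.55, adjusted p = 0.0011) and without replicate 5 of the day 3 tendons (0.45, adjusted p = 0.037).

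In tendons without a bursa all 4 genes rose between the days, against 21.9% of features. Col5a2 gained 1.40 ± 0.17, Col5a1 1.38 ± 0.20, Col1a1 1.17 ± 0.25 and Col3a1 0.68 ± 0.16 (edgeR adjusted p = 1.4e-07, 1.8e-06, 3.3e-04 and 0.0014). The order of the 4 estimates was the same as with the bursa kept. No day 14 library overlapped a day 3 library in any of them, as for 13.2% of features. Whether the gain differed between tendons with and without a bursa was not tested.

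The direct test of the bursa compared tendons with the bursa removed and kept on the same day. At day 3, Col1a1 was 11437 to 23799 CPM (median 18845) with the bursa removed, where it was 19593 to 32342 CPM with it kept. All 4 genes had lower means without the bursa, with differences of -0.39 ± 0.24 for Col1a1, -0.32 ± 0.16 for Col3a1, -0.44 ± 0.19 for Col5a1 and -0.36 ± 0.16 for Col5a2. The groups overlapped for each gene and none passed (edgeR adjusted p = 0.64 to 0.65). Unadjusted p-values were 0.12, 0.058, 0.032 and 0.036 in the same order. This test takes the libraries as unpaired. With equal numbers as a block within day the differences were -0.48 to -0.37, and none passed either (highest edgeR adjusted p = 0.2).

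The test called 0 of 16879 features at day 3 (0%), with 1272 at an unadjusted p under 0.05, and DESeq2 called 15, none of them a collagen gene here. In the authors' deposited table for this comparison, Col5a2 passes at -0.40 (adjusted p = 0.031), while Col5a1, Col1a1 and Col3a1 have adjusted p of 0.06, 0.092 and 0.14. Of 7929 genes with an adjusted p in the authors' deposited table, 82 (1.03%) pass. By equal replicate number, each of the 4 genes was lower with the bursa removed in 6 of 6 pairs, with median differences of -0.26 to -0.30. The share of all features lower in every pair was not computed. As the 4 genes move together, their counts of pairs are not separate observations. Replicate 1 of the removed group had the lowest Col3a1 (11113 CPM, next lowest 23402), Col5a1 and Col5a2, and also the highest muscle sum of the injured tendons (21751 CPM). Its mitochondrial share was 25.4%, against 11.7 to 15.5% in the rest of its group. Without it the differences were -0.28 for Col1a1, -0.17 for Col3a1, -0.29 for Col5a1 and -0.21 for Col5a2 (adjusted p = 1 for each), and with the muscle level in the model they were -0.25 to -0.35.

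At day 14 the difference was near 0. Col1a1 stood at 32305 to 50649 CPM (median 40710) with the bursa removed and at 33229 to 51447 CPM with it kept. The differences were -0.02 ± 0.24 for Col1a1, -0.02 ± 0.16 for Col3a1, -0.02 ± 0.19 for Col5a1 and -0.04 ± 0.16 for Col5a2 (edgeR adjusted p = 1 for each). Their 95% intervals ran from -0.51 to 0.48 for Col1a1 and from -0.37 to 0.30 for Col5a2, so a difference beyond those sizes lay outside the interval. Of all features 0 of 16879 passed, with 220 at an unadjusted p under 0.05 and 3 by DESeq2. Lower values with the bursa removed were found in 4 of 6 pairs of equal number for Col1a1, Col3a1 and Col5a1, and in 3 of 6 for Col5a2. Shares of all features were not computed for these pairs either.

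The bursa itself also raised its collagen RNA. Col1a1 stood at 270, 169.8, 1858, 2996 and 2078 CPM in the 5 control bursae. It was 13601 to 26765 CPM at day 3 (median 17220) and 10749 to 19285 CPM at day 14 (median 15169). The rise was 3.73 ± 0.61 at day 3 (edgeR adjusted p = 1.6e-04) and 3.33 ± 0.60 at day 14 (adjusted p = 0.0023), with no overlap. Without control bursae 1 and 2 these were 3.10 (adjusted p = 2.8e-06) and 2.68 (adjusted p = 1.2e-04).

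Col3a1 in the control bursae was 887, 733, 5735, 7801 and 6051 CPM. At day 3 it reached 22104 to 31970 CPM (median 26588) and at day 14 it was 20428 to 31997 CPM (median 26085). Its rise was 2.69 ± 0.51 at day 3 and 2.62 ± 0.51 at day 14 (edgeR adjusted p = 5.4e-04 and 0.0035). Leaving out the same 2 control libraries gave 2.08 and 2.00, both still past the threshold.

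Of the type V chains in bursa, Col5a1 rose from 80.7 to 497 CPM in controls (median 369) to 1114 to 2499 CPM at day 3 (median 1621), by 2.65 ± 0.46 (adjusted p = 2.7e-04). At day 14 it had 684 to 2211 CPM (median 1289), 2.21 ± 0.45 above control (adjusted p = 0.0047). Col5a2 had 96.6 to 883 CPM in controls (median 519), 1083 to 1982 CPM at day 3 and 788 to 1957 CPM at day 14. It rose by 1.96 ± 0.47 and 1.64 ± 0.46 (edgeR adjusted p = 0.0031 and 0.026). At day 14 the lowest Col5a2 of injured bursae lay under the highest control (883 CPM), the only overlap among the 8 comparisons of these genes with control bursa. Its adjusted p was 0.18 with total counts as the scale (1.57) and 0.052 without day 14 replicate 2 (1.5), and the value was 1.05 (adjusted p = 0.023) without control bursae 1 and 2.

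So 4 of 4 genes rose in bursa at day 3, where 21.9% of features rose, and 4 of 4 at day 14, where 9.08% did. Groups did not overlap for 4 of 4 genes at day 3 and 3 of 4 at day 14, as for 13.4% and 6.44% of features. Between day 3 and day 14 none of the 4 differed past the threshold, against 21.2% of features that did. The estimates were -0.40 ± 0.51 for Col1a1, -0.08 ± 0.45 for Col3a1, -0.45 ± 0.41 for Col5a1 and -0.33 ± 0.42 for Col5a2 (edgeR adjusted p = 0.48 to 0.93). The 95% interval for Col1a1, -1.49 to 0.68, leaves room for a fall or a rise.

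Among the 8 groups, the mean level of each gene was highest in the 2 groups of day 14 tendons, which overlapped each other. The day 3 tendons with the bursa kept came next and overlapped the day 3 bursae for all 4 genes. Ranges of day 14 bursa and day 14 tendon with the bursa kept did not overlap for any of the 4 genes. The share of all features without overlap between these tissues was not computed, so this is not read as particular to the collagen genes. The control groups of both tissues came last.

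Before injury, the tissues differed in Col1a1 but not past the threshold in the other 3 genes. Control bursa had less Col1a1 than control tendon, at -1.67 ± 0.42 (edgeR adjusted p = 0.001), so 1 of 4 genes fell where 21.7% of features were lower. The ranges overlapped, and with total counts as the scale the value was -1.09 (adjusted p = 0.054). With the muscle level in the model it was -2.63 and with the replicate block -2.2 (adjusted p = 0.00038 and 3.1e-06). Neither is a firm check. Muscle markers had a mean log2 CPM of 4.62 to 10.2 in control bursae and 11.5 to 12.2 in control tendons, without overlap. Control libraries of equal number correlated at a mean of 0.04, and those of unequal number at -0.01, so no pairing was seen. Col3a1 differed by 0.12 ± 0.34, Col5a1 by 0.09 ± 0.33 and Col5a2 by -0.37 ± 0.33 (adjusted p = 0.80, 0.85 and 0.36). Without control bursae 1 and 2, Col3a1 was higher in bursa by 0.67 (adjusted p = 0.0026) and Col1a1 was at -1.09 (adjusted p = 0.0026). Col5a2 passed as lower in bursa without control bursa 4 (-0.82, adjusted p = 0.03) and with the muscle level in the model (-1.35, adjusted p = 0.014).

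The response to injury was then compared between tissues, as the bursa's log2 rise over its control minus that of tendon with the bursa kept. At day 14 the type V chains rose less in bursa, by -1.86 ± 0.45 for Col5a1 and -1.59 ± 0.44 for Col5a2 (edgeR adjusted p = 0.0013 and 0.0049). For Col1a1 the difference was 0.18 ± 0.56 and for Col3a1 -0.68 ± 0.46 (adjusted p = 0.84 and 0.26). A lower response was called for 18.9% of features. Both type V calls were lost with the muscle level in the model (-1.10, edgeR adjusted p = 0.11, and -0.75, adjusted p = 0.30). As muscle levels of control and injured tendons do not overlap, that model cannot separate injury from muscle content here either. Col5a2 was also lost with the replicate block (-1.19, adjusted p = 0.055). Without control bursae 1 and 2 the values were -2.36 for Col5a1, -2.13 for Col5a2 and -1.24 for Col3a1, all 3 past the threshold. Col3a1 passed as well without control bursa 2 alone (-0.95, adjusted p = 0.046).

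At day 3 none of the 4 differences passed, against 23.4% of features that did. Col1a1 rose more in bursa by 1.32 ± 0.56 (edgeR adjusted p = 0.08), and the other 3 genes differed by -0.25 to -0.49. Col1a1 passed with DESeq2 (1.37, adjusted p = 0.048), with the muscle level in the model (1.82, adjusted p = 0.022) and with the replicate block (1.82, adjusted p = 0.0021). The muscle model has the same limit as at day 14. That block joins control libraries by number as well, where no pairing was seen (mean correlation 0.04). Col1a1 also passed without control tendon 1 (1.53, adjusted p = 0.045) or control bursa 4 (1.75, adjusted p = 0.018). Without control bursae 1 and 2 it was 0.76 (adjusted p = 0.13), while Col3a1 and Col5a1 then passed at -0.81 and -0.95.

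The ratio of type III to type I was taken inside each library as log2 Col3a1/Col1a1, which no scaling of the library changes. Ratios were compared by an exact two-sided permutation test over libraries, adjusted over 24 tests (2 ratios in 12 comparisons). In control bursae the ratio was 1.72, 2.11, 1.63, 1.38 and 1.54. It was 0.26 to 0.71 in bursa at day 3 (median 0.54) and 0.49 to 1.07 at day 14 (median 0.84). The ratio was thus lower after injury at both days, with no overlap. The differences were -1.16 ± 0.14 and -0.84 ± 0.14 (exact p = 0.0022 for each, the smallest possible, adjusted p = 0.013), which put the ratio at 0.446 and 0.557 times its control level.

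In tendon the ratio was widely spread before injury, at 1.00, 0.27, -0.23, -0.43 and -1.03 in the 5 controls, as Col1a1 varied there and Col3a1 hardly did. With the bursa kept it was 0.04 to 0.61 at day 3 (median 0.29) and -0.30 to 0.18 at day 14 (median -0.13). Neither group was set apart from control. The differences were 0.38 ± 0.35 and -0.03 ± 0.35 (exact permutation adjusted p = 0.39 and 0.96). With the bursa removed they were 0.42 ± 0.35 and -0.03 ± 0.35 (adjusted p = 0.36 and 0.96). Control tendon 1 decided the day 3 result, for without it the ratio was higher after injury by 0.65 with the bursa kept (adjusted p = 0.029) and by 0.69 with it removed (adjusted p = 0.018).

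Between day 3 and day 14 the ratio fell in tendon, at -0.42 ± 0.10 with the bursa kept (exact permutation p = 0.0043, adjusted p = 0.021) and -0.45 ± 0.12 with it removed (exact p = 0.0065, adjusted p = 0.024). The ranges overlapped slightly. At day 14 the ratio was 0.749 and 0.734 times its day 3 level. In bursa the ratio moved the other way, higher at day 14 by 0.32 ± 0.11 (exact permutation p = 0.017, adjusted p = 0.042), a call that was lost when any of 9 single libraries was left out. Removal of the bursa made no detectable difference to the tendon ratio, at 0.03 ± 0.11 on day 3 and 0.00 ± 0.11 on day 14 (exact permutation adjusted p = 0.92 and 0.97).

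**Figure D3:**
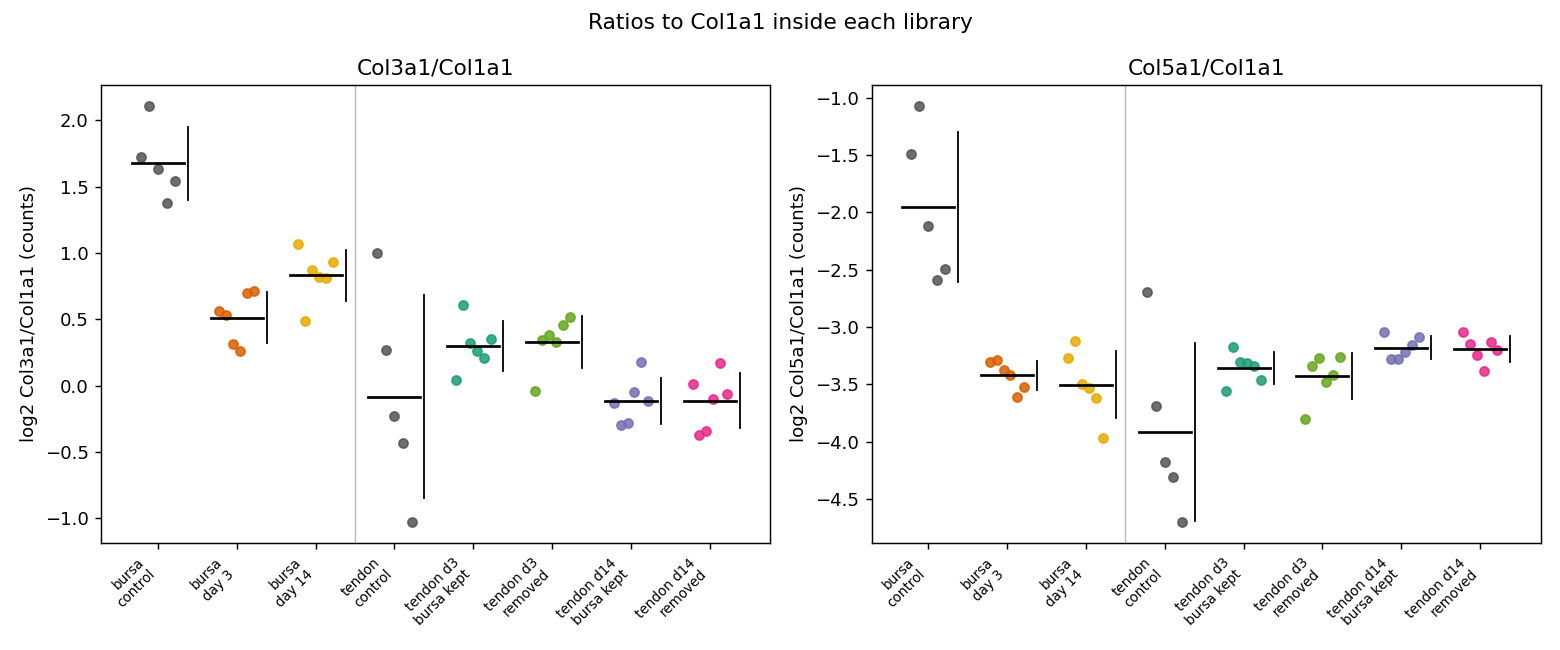
Log2 ratio of Col3a1 to Col1a1 counts (left) and of Col5a1 to Col1a1 counts (right) in each library; points are libraries, horizontal bars are group means and vertical lines are mean ± SD. Control bursae lie above injured bursae in both panels, and control tendons spread from -1.03 to 1.00 on the left.

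For type V to type I, log2 Col5a1/Col1a1 was -2.59 to -1.07 in control bursae (median -2.12). It was -3.61 to -3.29 at day 3 and -3.97 to -3.12 at day 14. The differences of -1.46 ± 0.30 and -1.55 ± 0.32 came with no overlap (exact permutation p = 0.0022 for each, the smallest possible, adjusted p = 0.013). In control tendon the ratio was -4.70 to -2.69, and -3.38 to -3.04 at day 14 over both bursa groups. The differences from control tendon at day 14 were 0.73 ± 0.35 with the bursa kept and 0.72 ± 0.35 with it removed, and did not pass (exact permutation adjusted p = 0.11 for both). Without control tendon 1 they were 1.04 and 1.03 (adjusted p = 0.014), and at day 3 0.86 and 0.79 (adjusted p = 0.014 and 0.018). From day 3 to day 14 this ratio differed by 0.18 ± 0.07 with the bursa kept and 0.24 ± 0.09 with it removed (exact permutation adjusted p = 0.052 and 0.042). The second call was lost when any of 9 single libraries was left out.

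Control tissues differed most in these ratios. Control bursa exceeded control tendon by 1.76 ± 0.36 in log2 Col3a1/Col1a1 and by 1.96 ± 0.45 in log2 Col5a1/Col1a1, without overlap (exact permutation p = 0.0079, the smallest possible, adjusted p = 0.024 for both). These are ratios 3.38 and 3.89 times as high. Without control bursae 1 and 2 the differences were 1.6 and 1.51, still without overlap (exact permutation p = 0.036, smallest possible 0.018, adjusted p = 0.078 for both).

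Of the 4 measured genes, 2 have a promoter among the RefSeq sequences used here (GRCr8), both of type V, whose levels correlated closely. The 250 bases before the annotated start of Col5a1 (chr3:31606630-31606879, plus strand) and of Col5a2 (chr9:55090152-55090401, minus strand) are shown because these genes encode partner chains of 1 collagen. Capitals mark matches to the motifs searched, and neither sequence was altered in this study.
Col5a1: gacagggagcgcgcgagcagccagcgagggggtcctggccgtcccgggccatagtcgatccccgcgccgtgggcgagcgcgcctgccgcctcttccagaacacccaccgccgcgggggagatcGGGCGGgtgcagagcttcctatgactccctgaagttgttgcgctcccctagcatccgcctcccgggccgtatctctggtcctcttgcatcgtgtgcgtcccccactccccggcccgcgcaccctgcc
Col5a2: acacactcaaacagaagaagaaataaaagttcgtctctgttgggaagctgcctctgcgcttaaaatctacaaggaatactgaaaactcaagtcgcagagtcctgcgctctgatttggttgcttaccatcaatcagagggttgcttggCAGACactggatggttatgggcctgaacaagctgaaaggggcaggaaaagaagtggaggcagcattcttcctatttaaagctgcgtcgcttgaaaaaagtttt

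The pair differed in base content, with 71.6% G and C in Col5a1 and 44.8% in Col5a2, where the median of 33469 such promoters was 51.2%. The Col5a1 promoter held 1 GC box (GGGCGG, at -127 from the start), a match found in 30.5% of promoters. The Col5a2 promoter held 1 SMAD element (CAGAC, at -103), found in 42.9%. Neither held the letters of a TATA box (TATAAA, 12.9% of promoters), a CCAAT box (CCAAT, 34%), an AP-1 site (TGANTCA, 6.34%) or an E-box (CANNTG, 65.5%), on either strand. The motifs do not overlap within these sequences. In the same RefSeq annotation Col5a2 and Col3a1 are neighbours on the chromosome, with 0 genes between them.

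Across libraries the 4 genes moved together. The Pearson correlation of log2 CPM between pairs of them was 0.94 to 0.98 over 29 tendon libraries and 0.97 to 0.99 over 17 bursa libraries, values that hold the difference between injured and control libraries. By the same measure, the genes most like the mean of the 4 in tendon were Lrrc15, a surface protein of activated fibroblasts (0.993), Igsf3 (0.992), C1qtnf6 (0.990) and Col12a1, a collagen on the surface of type I fibrils (0.989). They were followed by Pofut2 (0.988), Tmem119 and Cercam (0.986 each) and Rcn1 (0.984), among 7903 symbols. In bursa they were Bmp1, which trims procollagen ends (0.993), Cmtm3 (0.992), the collagenase Mmp14 and the collagen-binding Sparc (0.990 each). Ppic (0.989), Ptgfrn (0.988), Cercam (0.987) and Col6a1 (0.986) came next, among 7964 symbols. Cercam stood in both lists.

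The machinery that makes and handles collagen was followed in 7 lists. Examples were chosen after their values were seen. In bursa 21.9% of all features rose and 23.6% fell at day 3, and 9.08% and 6.86% at day 14. In tendon with the bursa kept the shares were 32.3% and 32.4% at day 3, and 33.4% and 31.9% at day 14. Procollagen folding and modification showed the most even change. With the bursa kept, 13 of its 13 measured genes (of 17 listed) rose in tendon at day 3, with a median of 1.49 where that of all features was -0.01, and 12 rose at day 14 (median 1.45, all features 0.03). P3h1, a prolyl 3-hydroxylase, rose by 2.44 ± 0.14 at day 3 and P4ha3, a prolyl 4-hydroxylase subunit, by 2.49 ± 0.22 (edgeR adjusted p = 5.6e-14 and 1.4e-10). In bursa 12 of 13 rose at day 3 and 8 at day 14. From day 3 to day 14, 9 of 13 fell in bursa and none rose, where 12% of features fell, 9.19% rose and the collagen genes did not differ past the threshold.

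**Figure D4:**
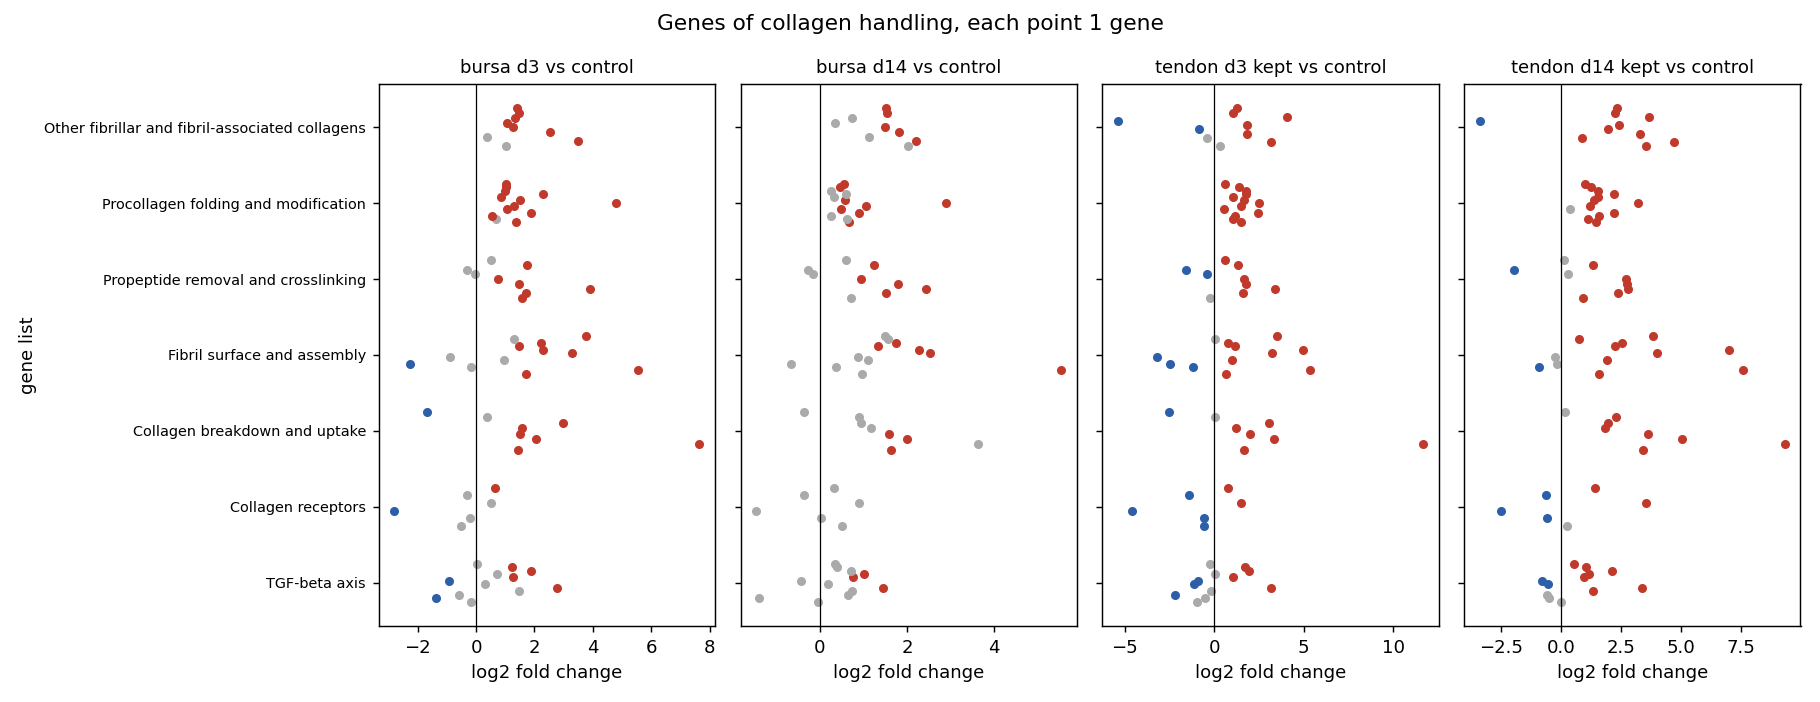
Log2 fold change against control of every measured gene in 7 lists (rows) in bursa and in tendon with the bursa kept, at day 3 and day 14 (panels, each with its own x axis); red points rose, blue points fell and grey points did not pass. All 13 procollagen folding genes are red in tendon at day 3, and collagen receptors lie on both sides of 0.

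Of 9 measured genes for propeptide removal and crosslinking (13 listed), 6 rose and 2 fell in tendon at day 3 with the bursa kept. At day 14, 6 rose and 1 fell. Shares of all features were 32.3% up and 32.4% down at day 3, and 33.4% and 31.9% at day 14. Lox, which crosslinks collagen, rose by 3.40 ± 0.30 at day 3 and 2.78 ± 0.29 at day 14, while its relative Loxl4 fell, at -1.59 ± 0.23 and -1.97 ± 0.24 (highest edgeR adjusted p = 1.1e-06). In bursa 6 rose at day 3 and 5 at day 14, where 21.9% and 9.08% of all features rose, and none fell. Lox was higher there by 3.91 ± 0.38 and 2.43 ± 0.35 (adjusted p = 1.2e-06 and 6.1e-04).

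Genes of the fibril surface split by day. Of 12 measured (16 listed), 8 rose and 3 fell in tendon at day 3 with the bursa kept, against 32.3% and 32.4% of features. At day 14, 9 rose and 1 fell, against 33.4% and 31.9%. Those that fell at day 3 were the small proteoglycans Kera (-3.18 ± 0.35), Fmod (-2.47 ± 0.23) and Dcn (-1.17 ± 0.22). From day 3 to day 14 Kera rose by 2.92 ± 0.34 and Fmod by 2.30 ± 0.23, and against control neither differed past the threshold at day 14 (adjusted p = 0.51 and 0.54). Dcn stayed lower, at -0.94 ± 0.22 (edgeR adjusted p = 5e-04). Postn, a matrix protein of healing tissue, rose by 4.98 ± 0.30 at day 3 and 6.98 ± 0.33 at day 14. In bursa 7 rose and 1 fell at day 3, against 21.9% and 23.6% of features. At day 14, 5 rose and none fell, against 9.08% and 6.86%.

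Other fibrillar and fibril-associated collagens followed the 4 genes in part. In tendon with the bursa kept 6 of 10 measured (12 listed) rose and 2 fell at day 3, against 32.3% and 32.4% of features. At day 14, 9 rose and 1 fell, against 33.4% and 31.9%. Col12a1 rose by 3.16 ± 0.24 and then stood at 4.70 ± 0.26. Col5a3, the third type V chain, rose by 4.05 ± 0.27 and 3.67 ± 0.26. Col11a1, a minor fibril chain, differed by 0.35 ± 0.28 at day 3 (adjusted p = 0.27) and rose by 3.52 ± 0.31 by day 14 (edgeR adjusted p = 2.7e-10). Col24a1 fell by 0.86 ± 0.19 at day 3 and was higher by 1.93 ± 0.19 at day 14. In bursa 7 of 9 rose at day 3 and 5 at day 14, where 21.9% and 9.08% of features rose.

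For breakdown and uptake, 6 of 8 measured genes (11 listed) rose and 1 fell in tendon at day 3 with the bursa kept, and 7 rose and none fell at day 14. Mmp14 rose by 3.36 ± 0.19 and 5.04 ± 0.20, while Timp3, an inhibitor of such proteases, fell by 2.5 ± 0.17 at day 3 and was 0.17 ± 0.17 from control at day 14 (edgeR adjusted p = 2.2e-12 and 0.38). In bursa 6 rose and 1 fell at day 3. At day 14, 3 rose and none fell there, where 9.08% of features rose and 6.86% fell. Collagen receptors went both ways in tendon, with 2 of 6 measured (7 listed) up and 4 down at day 3, and 2 up and 3 down at day 14. Of all features 32.3% rose and 32.4% fell at day 3, and 33.4% and 31.9% at day 14. Itga11 rose by 1.52 ± 0.22 and 3.55 ± 0.24, and Itga10 fell, at -4.56 ± 0.23 and -2.51 ± 0.20. In bursa 1 receptor rose and 1 fell at day 3, where 21.9% of features rose and 23.6% fell, and none passed at day 14.

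The TGF-beta axis is a main inducer of collagen genes. In tendon with the bursa kept 4 of 12 measured genes (13 listed) rose and 3 fell at day 3. Those counts lay near the shares of all features (32.3% and 32.4%). At day 14, 7 rose and 2 fell, against 33.4% and 31.9% of features. Tgfb1 rose by 1.03 ± 0.11 and 0.96 ± 0.11, and its receptor Tgfbr1 by 1.73 ± 0.13 and 1.04 ± 0.13. Smad3, which carries the signal to the nucleus, fell, at -1.14 ± 0.12 and -0.57 ± 0.11 (highest edgeR adjusted p of these 6 values, 9.8e-05). The tendon transcription factor Scx was at -0.15 ± 0.23 at day 3 (adjusted p = 0.60) and rose by 1.31 ± 0.24 at day 14. In bursa 4 rose and 2 fell at day 3, against 21.9% and 23.6% of features. At day 14, 3 rose and none fell, against 9.08% and 6.86%. Between tendons with the bursa removed and kept, no gene of the 7 lists passed on either day, where 0 of 16879 features passed at all.

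Markers of other cell types moved beside the collagens. Of all features, 32.3% rose and 32.4% fell in tendon at day 3 with the bursa kept, and 33.4% and 31.9% at day 14. In bursa 21.9% rose and 23.6% fell at day 3, and 9.08% and 6.86% at day 14. Counts over so few markers can lie near these shares. Of 3 measured fibroblast markers (6 listed) 3 rose in tendon and in bursa at day 3, and their sum went from 325 to 468 CPM in control tendons to 830 to 1017 CPM at day 3 with the bursa kept. Macrophage markers, 4 of 5 measured, rose in 4 of 4 in both tissues at day 3, from 74.5 to 148 CPM in control tendons to 471 to 662 CPM. The smooth muscle and myofibroblast markers, 4 of 4 measured, did not follow the collagens. In bursa at day 3 they fell in 4 of 4, among them Acta2 by 0.74 ± 0.22 (edgeR adjusted p = 0.012). In tendon with the bursa kept they fell in 3 of 4 at day 3, and at day 14 1 rose and 1 fell. The 2 measured adipocyte markers (5 listed) summed to 4260 to 11020 CPM in control bursae and 1332 to 3467 CPM at day 3. Schwann cell markers, 4 of 4 measured, fell in 4 of 4 in both tissues at day 3, and at day 14 in 4 of 4 in tendon and 1 of 4 in bursa. Tendon cell markers fell in 5 of 7 in tendon at day 3 with the bursa kept, and at day 14 3 rose and 1 fell. Mki67, the 1 measured marker of dividing cells (4 listed), rose by 4.87 ± 0.19 in tendon and 4.89 ± 0.35 in bursa at day 3 (edgeR adjusted p = 6.1e-17 and 8.7e-08). Of the 2 measured synovial lining markers (3 listed) none passed in either tissue at day 3. Of 4 measured cartilage markers (5 listed) 1 rose and 3 fell in tendon at day 3, and of 3 bone-forming markers (6 listed) 1 rose and 2 fell. The part of these cell types in the collagen results was not tested.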

How the data were processed

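The authors deposited estimated counts per transcript, made with kallisto 0.44.0 after bcl2fastq 2.19, per the submitters' processing notes. They also deposited 11 DESeq2 tables, with a mean normalized signal (baseMean), log2 fold change and its error in log2 units, a Wald score (stat) and p-values, per the file headers. DESeq2 version, build and annotation were not given in the sources used here, and poly(A) RNA was sequenced, per the labels' protocols. The deposited estimated counts are whole numbers, so nothing was rounded.

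Symbols were assigned to transcripts through agreement of mean normalized counts in all 11 deposited tables, within 2% or 0.2 normalized counts, as the count file holds transcript identifiers only. This named 12593 of 23747 symbols and 87.3% of counts, and the same search with shifted means gave 3 matches. Col1a1, Col3a1 and Col5a2 matched 1 transcript each and Col5a1 2, within 0.144%. Col1a2 had no row and is not analysed here, nor is its ratio to Col1a1. Transcripts without a symbol were tested singly.

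With edgeR 4.0.16 in R 4.3.3, counts per symbol were filtered (filterByExpr), scaled by TMM and tested by quasi-likelihood, over 17 bursa libraries (16810 features), 29 tendon libraries (16879) or all 46 (17805, for contrasts between tissues). Scripts were tested on simulated data. Printed CPM use the scaled library sizes of all 46 libraries. Alternatives were DESeq2 1.42.0, other scalings, no filter, a muscle covariate, the replicate number as a block, and leaving libraries out. Ratios were tested with exact permutation in Python 3.11.15.

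The genes and lists were chosen with earlier results of these data known. Genes named are the 5 collagens, examples from 7 lists and from the cell type markers, and the 8 symbols most correlated with the collagens in each tissue. The p-values take libraries as independent samples. Libraries of equal number deviated together in all 6 pairs of removed and kept tendon at day 14 (correlation 0.25 to 0.57), and of bursa and kept tendon at day 3 (0.14 to 0.30), which were therefore read as paired, from the data alone. For removed and kept tendon at day 3 this held in 5 of 6, at a correlation over 0.1. For bursa and kept tendon at day 14 it held in 4 of 6 (0.02 to 0.31, mean 0.2). Pairing was not seen between control bursa and control tendon (mean correlation 0.04, from -0.24 to 0.31). Nor was it seen between kept tendons of day 3 and day 14 (mean 0.09) or of day 3 and control (mean 0.02). In fits of a single tissue the block joined equal numbers across control, day 3 and day 14, and so rests there on the number alone.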

Additional observations from a re-analysis of the deposited data

Results flagged for a closer look

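In the day 3 tendons with the bursa removed, replicate 1 lay far below the other 5 libraries in Col3a1 (13.44 log2 CPM), Col5a1 (9.68) and Col5a2 (9.74). Its log2 Col3a1/Col1a1 was the lowest of its group as well, at -0.04. Of 48 combinations of a gene or ratio with a group, 4 had such a library, all of them this one and in genes that move together, so they are not separate events. Chance flags about 1 in 20 groups.

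The day 14 response of bursa and of tendon with the bursa kept differed for both type V genes by the interaction test. The bursa's log2 rise minus that of tendon was -1.86 for Col5a1 and -1.59 for Col5a2 (edgeR adjusted p = 0.0013 and 0.0049). The tissues had different muscle content before injury, at 34135 to 55443 CPM in control tendons and 525 to 20363 CPM in control bursae. Adipocyte markers differed as well, at 228 to 514 CPM and 4260 to 11020 CPM. The part of tissue content in the type V difference was not tested, apart from the muscle model, which cannot separate it from injury.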

How the results depend on the processing

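Of 1088 alternative values for the 4 genes, 1022 kept their direction and side of the threshold, 6 lost a call, 15 gained one and 45 turned their direction. Of 288 for the ratios, 237 kept both, 24 lost a call, 7 gained one and 20 turned. None of the 65 turned values passed the threshold, with or without the alternative. As single libraries were left out, log2 Col3a1/Col1a1 ranged from 0.27 to 0.39 for bursa day 14 against day 3, and against control tendon from 0.15 to 0.65 at day 3 with the bursa kept and 0.18 to 0.69 with it removed. For log2 Col5a1/Col1a1 against control tendon the ranges were 0.36 to 0.86 and 0.29 to 0.79 at day 3, and 0.54 to 1.04 and 0.53 to 1.03 at day 14. For day 14 against day 3 they were 0.14 to 0.22 with the bursa kept and 0.17 to 0.28 with it removed. Without control bursae 1 and 2, left out after seeing the data, control bursa exceeded control tendon by 1.6 in log2 Col3a1/Col1a1 and 1.51 in log2 Col5a1/Col1a1 (adjusted p = 0.078 for both). With the replicate number as a block, ratios were tested by sign flips, whose smallest p (0.031) adjusted to 0.062 to 0.068 with the other p-values as they were, so passing was out of reach. The estimates stayed as they were. The log2 Col3a1/Col1a1 changes between days were 0.32 in bursa, -0.42 in tendon with the bursa kept and -0.45 with it removed, and that of log2 Col5a1/Col1a1 was 0.24 with it removed. Between days the block joins libraries by number alone, as kept tendons of equal number correlated little (mean 0.09, from -0.13 to 0.29).

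Direction turned in these values. Control bursa against control tendon was -0.42 (Col3a1) and -0.25 (Col5a1) with the replicate block, -0.85 and -0.79 with the muscle covariate, and for Col5a2 0.12 with total counts and 0.14 without control bursae 1 and 2. The day 14 response of Col1a1 was -0.29 with total counts and -0.42 without control bursae 1 and 2, and that of Col3a1 0.17 with the muscle covariate. The day 3 response was 0.26 (Col3a1) and 0.21 (Col5a2) with the block, and 0.21 and 0.27 with the muscle covariate. The muscle covariate also gave bursa day 14 against day 3 as 0.03 (Col1a1), 0.33 (Col3a1) and 0.06 (Col5a2), and removed against kept tendon at day 14 as 0.08 (Col1a1), 0.11 (Col3a1), 0.13 (Col5a1) and 0.1 (Col5a2). As single libraries were left out, control bursa against control tendon ran from -0.22 to 0.39 (Col3a1) and -0.19 to 0.32 (Col5a1), the day 14 response of Col1a1 from -0.23 to 0.61, and the day 3 response from -0.55 to 0.06 (Col3a1) and -0.50 to 0.20 (Col5a2). Removed against kept tendon at day 14 ran from -0.07 to 0.06 (Col1a1), -0.08 to 0.05 (Col3a1), -0.09 to 0.08 (Col5a1) and -0.07 to 0.01 (Col5a2). Log2 Col3a1/Col1a1 ran from -0.27 to 0.24 at day 14 against control for both bursa groups, and removed against kept from -0.02 to 0.11 at day 3 and -0.05 to 0.06 at day 14. Log2 Col5a1/Col1a1 ran from -0.16 to 0.01 in bursa day 14 against day 3, and removed against kept from -0.11 to 0.00 at day 3 and -0.04 to 0.03 at day 14.

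Between control tissues, 1 of the 4 genes was called. The number was 0 with total counts, 2 with the muscle covariate, 2 without control bursae 1 and 2, and 1 to 2 as single libraries were left out. For the day 14 response, where 2 were called, it was 1 with the replicate block and 0 with the muscle covariate. For the day 3 response, where 0 were called, it was 1 with the replicate block, 1 with the muscle covariate, 1 with DESeq2, 2 without control bursae 1 and 2, and 0 to 1 as single libraries were left out. The block changed no other count of called collagen genes. Within day, the block gave adjusted p = 0.17 to 0.20 for the 4 genes in removed against kept tendon at day 3, where 4 of 6 libraries correlated best with their own number. The cause of these changes was not tested. Features called moved over 1.5 times with total counts (bursa day 3 from 7641 to 4030, day 14 from 2679 to 507, day 14 against day 3 from 3563 to 1174) and, without control bursae 1 and 2, to 5470 in the last. With the muscle covariate they were 3444 and 4322 (day 3 tendon, kept and removed, from 10912 and 10446), 5087 and 6049 (day 14, from 11024 and 10850) and 4019 (day 14 response, from 6046). DESeq2 called 15 and 3 in removed against kept tendon, where edgeR called 0.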

Other observations

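The balance of the 2 type V chains also moved with injury, a description chosen after the values were seen and not tested. Inside a library, log2 Col5a1/Col5a2 was -1.42 to -0.73 in control tendons (mean -1.0 ± 0.25 SD, n = 5), -0.22 to 0.19 at day 3 (mean -0.07 ± 0.17, n = 6) and -0.41 to 0.07 at day 14 (mean -0.19 ± 0.18) with the bursa kept. With the bursa removed it was -0.28 to 0.01 at day 3 and -0.51 to 0.13 at day 14. No injured tendon overlapped a control. In bursa the ratio was -0.83 to -0.26 in controls, -0.11 to 0.33 at day 3 and -0.20 to 0.18 at day 14, again without overlap.

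Against Col3a1, the day 14 tendons stood apart from the day 3 tendons. With the bursa kept, log2 Col5a1/Col3a1 was -3.34 to -2.92 at day 14 and -3.81 to -3.56 at day 3. With the bursa removed it was -3.30 to -2.78 at day 14 and -3.89 to -3.65 at day 3. Control tendons lay at -3.95 to -3.67. Bursae lay at -4.04 to -3.18 in controls, -4.31 to -3.68 at day 3 and -4.90 to -3.62 at day 14. Control bursae thus overlapped the day 14 tendons. This ratio was not tested either.

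Col5a1 counts came from a pair of matched transcripts. The less abundant one held 10.4% ± 1.26 of them in control tendon (SD, n = 5), 10.2% ± 1.66 at day 3 and 13.1% ± 1.72 at day 14 with the bursa kept (n = 6 each). In bursa it held 13% ± 2.3 in controls, 13.1% ± 1.83 at day 3 and 14% ± 1.71 at day 14.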
